A study of Mus musculus with 8 samples.

Results

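The 32 genes described here act in mitosis, the division of the nucleus and of the cell. They were chosen by name, as cyclins and Cdk1, mitotic kinases, partners of the anaphase-promoting complex, and proteins of the kinetochore, spindle, chromosome and cleavage furrow. All 32 were found among the 55335 genes of the deposited tables, and all 32 were measured, meaning a mean of at least 5 CPM over the libraries. CPM is counts per 1000000 of the scaled library size, and 12177 genes in all were measured.

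RNA came from cells sorted as CD8 T cells out of B16 tumours, a mouse melanoma line given by intravenous injection and left to grow for 14 days. The CD36_KO library came from Cd36 knockout mice and the WT library from wild-type C57BL/6 mice, and the labels give C57BL/6 as the strain background of both. The 8 deposited samples are titled as 4 sequencing lanes of 1 library per genotype, so each genotype was treated as 1 library without a replicate. The knockout is given for the mouse and not for a cell type, and its allele, the animals' age and number and the gates used for sorting are details that the sources at hand do not state.

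Mitosis begins when cyclin B activates the kinase Cdk1, and it ends when the anaphase-promoting complex marks cyclin B and securin for destruction. Kinetochores join chromosomes to spindle microtubules, the spindle checkpoint holds back the anaphase-promoting complex until all are joined, and the central spindle then sets where the cell is cut. Many of these genes are transcribed late in the cell cycle through a promoter element called the cell cycle genes homology region (CHR) and through CCAAT boxes bound by the factor NF-Y. Their RNA is therefore commonly read as a sign of dividing cells, both in activated T cells and in tumour cells.

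The libraries held 10363391 estimated counts for CD36_KO and 10071960 for WT, and the lanes 2569962 to 2611740 and 2497048 to 2538468. Cd36 itself had 358 counts in the CD36_KO library and 1194 in the WT library, a log2 ratio of -1.98 (95% counting interval -2.15 to -1.80). Summed melanoma markers had a similar log2 ratio of -2.04, and summed fibroblast markers one of -2.05. The Cd36 value alone therefore cannot check the labels. The CD8 T cell markers were detected in both libraries, with Cd8a at 2307 counts in CD36_KO and 522 in WT. Transcripts of other cell types were also present: 11 melanoma markers summed to 1394 CPM in CD36_KO and 5715 CPM in WT, and 11 macrophage markers to 3673 CPM in CD36_KO and 4943 CPM in WT. Mitosis genes are used by any dividing cell, so their values belong to the mixed sample and not to CD8 T cells alone.

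Mitosis genes were lower in the CD36_KO library nearly throughout. Of the 32 genes, 23 were at least 2-fold lower in CD36_KO with a counting interval below no difference, 0 were at least 2-fold higher and 9 lay between. Over all measured genes that rule called 10.8% lower and 6.5% higher. The summed level of the 32 genes was 493.1 CPM in CD36_KO and 1026 CPM in WT, so that CD36_KO held 48.1% of the WT level (95% counting interval 46.5 to 49.7). The lane sums ran from 479.6 to 503.6 CPM in CD36_KO and from 1015 to 1050.5 CPM in WT, far apart. Fewer cells of a dividing type and less of this RNA per cell cannot be told apart in such bulk RNA.

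The log2 ratios (TMM-scaled CPM, CD36_KO over WT) ran from -2.16 for Aurkb to -0.05 for Kif23, with a median of -1.21. The median over all measured genes was -0.13. The counting interval lay wholly below no difference for 31 of the 32 genes, against 40.7% of all measured genes. All 4 CD36_KO lanes lay below all 4 WT lanes for 30 of the 32, against 33.3% of all measured genes, and the lanes overlapped for Mki67 and Kif23. The reverse, all CD36_KO lanes above all WT lanes, held for 0 of the 32, against 19.6% of all measured genes. These intervals cover counting error only, since each genotype has 1 library, and no difference here has a replicate check. They also treat reads as independent molecules, which PCR copies are not, so they may be too narrow.

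The deposited TPM values, which are scaled for effective length, gave smaller differences. The 32 genes summed to 141.8 TPM in CD36_KO and 214.0 TPM in WT. Their median log2 ratio on the log2(TPM + 1) scale was -0.51, while that of all measured genes was 0.37, and 26 of the 32 ratios were below 0. Set against the all-gene median on each scale, the mitosis genes stood at -1.08 on the CPM scale and at -0.88 on the TPM scale, and on either scale 31 of the 32 lay below that median. The fragment length implied by the effective lengths also differed, at 194.0 to 194.6 bases in the CD36_KO lanes and 159.8 to 161.1 bases in the WT lanes, and its part in the difference between the scales was not tested. The scaling moves the split over all genes as well: 1314 genes were called lower and 792 higher with TMM scaling, 940 and 1114 with total counts, and 329 and 1501 on the log2(TPM + 1) scale.

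**Figure D1:**
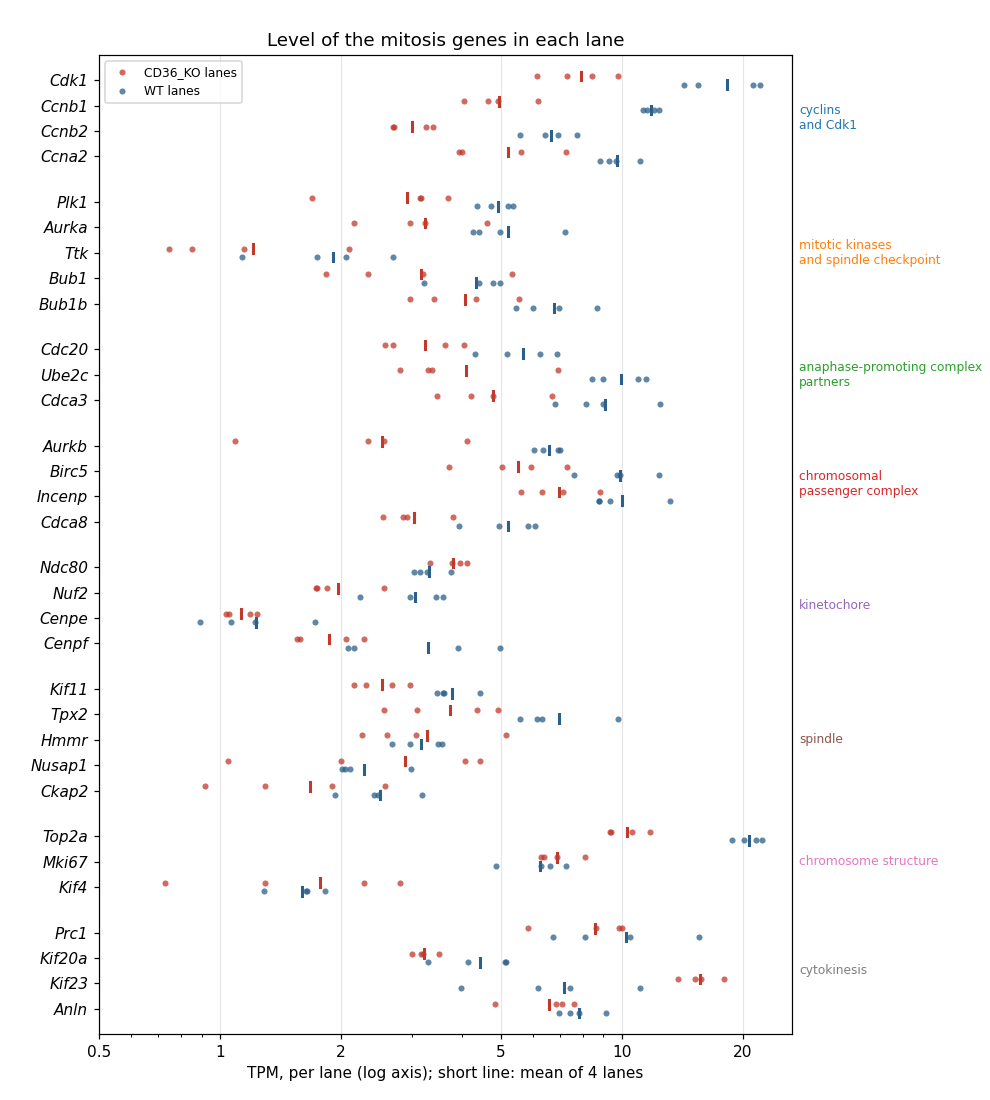
Level of each mitosis gene in TPM (log axis) in the 4 CD36_KO lanes and the 4 WT lanes, grouped by role, with a short line at the mean of each genotype's lanes. The cyclins, Cdk1 and Top2a show separate lanes with CD36_KO lower, while Kif23 lies higher in CD36_KO on this scale (15.7 against 7.19 TPM).

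**Figure D2:**
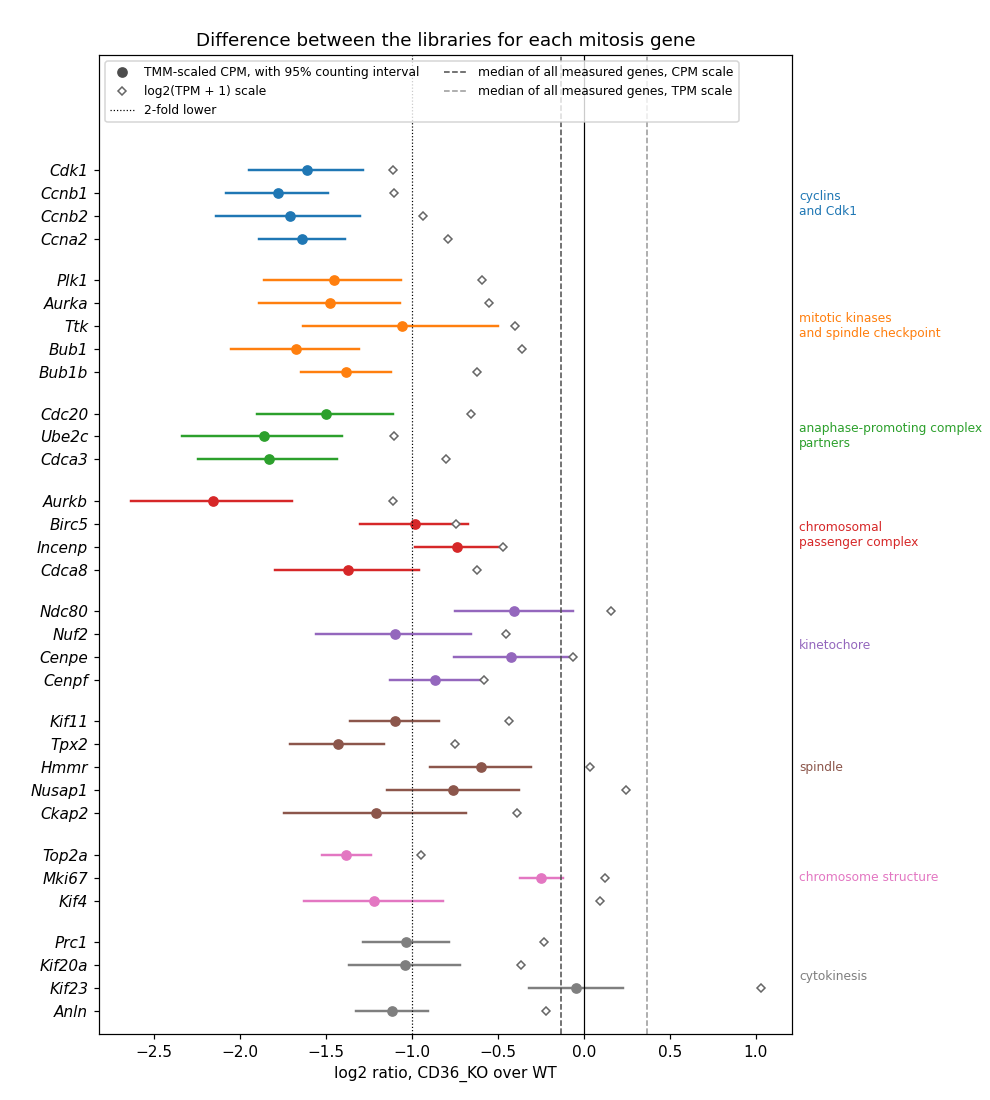
The log2 ratio of CD36_KO over WT for each mitosis gene: filled points give TMM-scaled CPM with the 95% counting interval, and open diamonds the log2(TPM + 1) scale. The filled points lie between -2.16 and -0.05, and the dashed lines mark the medians of all measured genes on each scale (-0.13 and 0.37).

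The melanoma markers moved the same way and further. All 11 measured melanoma markers were at least 2-fold lower in CD36_KO, with a median log2 ratio of -2.25 and lane sums of 1368 to 1415 CPM in CD36_KO against 5627 to 5863 CPM in WT. None of them was at 0 in either library: Dct, a pigment enzyme and the most abundant of them in WT by TPM, had 2837 counts in CD36_KO and 11424 in WT. Of 6 measured fibroblast markers, 5 were at least 2-fold lower (median -1.76, summed level 283.6 CPM in CD36_KO and 1177 CPM in WT). All 10 CD8 T cell markers were at least 2-fold higher (median 1.78), with lane sums of 973.7 to 1025 CPM in CD36_KO against 299.7 to 310.8 CPM in WT. The part of these cell types in the mitosis gene difference was not tested.

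Promoter sequences show the elements that these genes share. RefSeq promoters (GRCm38.p6, 250 bases before to 50 after the gene start) were found for 27 of the 32 genes, and not for Incenp, Tpx2, Ccna2, Aurkb and Kif20a. They were searched on both strands for the CHR core, spelled TTTGAA or TTCGAA, and for the NF-Y box CCAAT. Overlapping matches were each counted, and a gene with several promoters was counted if any of them held the motif. Among genes with 1 promoter in the table, those of the 2 lowest and the 2 highest log2 ratios follow, and each holds both motifs. Genes next in the order do not: Ccnb1 (-1.78) and Cenpe (-0.42) lack the CHR core and Ndc80 (-0.41) the CCAAT box. Each promoter given here runs 5′ to 3′ in the sense of the gene, with matches to either motif in capitals.
Ube2c promoter, chr2:164769679-164769978, plus strand: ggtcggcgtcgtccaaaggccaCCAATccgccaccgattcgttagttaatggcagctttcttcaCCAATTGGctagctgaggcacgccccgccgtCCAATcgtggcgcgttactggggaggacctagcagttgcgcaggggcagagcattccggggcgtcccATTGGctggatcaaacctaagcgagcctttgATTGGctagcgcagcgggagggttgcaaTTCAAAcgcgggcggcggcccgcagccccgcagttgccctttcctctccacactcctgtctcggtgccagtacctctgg
Cdca3 promoter, chr6:124829926-124830225, plus strand: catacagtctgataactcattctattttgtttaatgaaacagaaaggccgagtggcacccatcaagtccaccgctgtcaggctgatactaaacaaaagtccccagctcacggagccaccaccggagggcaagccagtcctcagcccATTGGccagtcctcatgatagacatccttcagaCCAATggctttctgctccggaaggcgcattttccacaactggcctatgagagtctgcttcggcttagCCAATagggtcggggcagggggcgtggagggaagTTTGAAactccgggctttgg
Mki67 promoter, chr7:135716330-135716629, minus strand: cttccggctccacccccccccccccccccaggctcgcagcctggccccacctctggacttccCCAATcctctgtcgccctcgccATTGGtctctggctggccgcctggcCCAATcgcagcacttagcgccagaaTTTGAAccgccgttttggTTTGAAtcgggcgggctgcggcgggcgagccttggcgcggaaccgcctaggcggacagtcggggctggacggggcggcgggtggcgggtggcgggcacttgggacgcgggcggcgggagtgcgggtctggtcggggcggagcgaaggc
Kif23 promoter, chr9:61946750-61947049, minus strand: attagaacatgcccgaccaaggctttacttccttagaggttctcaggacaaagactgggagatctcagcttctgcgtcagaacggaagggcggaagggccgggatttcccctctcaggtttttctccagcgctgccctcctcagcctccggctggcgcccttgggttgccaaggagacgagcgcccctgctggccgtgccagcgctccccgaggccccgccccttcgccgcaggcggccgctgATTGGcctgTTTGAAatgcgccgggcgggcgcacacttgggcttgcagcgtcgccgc

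The Ube2c window holds 6 CCAAT boxes, of which a pair overlap in CCAATTGG, and 1 CHR core close before the start. The Mki67 window, from a gene with a log2 ratio of only -0.25, holds 3 CCAAT boxes and 2 CHR cores. Among the 27 genes, 22 (81.5%) held the CHR core, against 16.6% of 9002 measured genes and 21.7% of all 27025 genes with a promoter in the table. The CCAAT box was found in 22 (81.5%), against 42.8% of measured genes and 41.1% of all genes, and both motifs in 20 (74.1%), against 6.9% and 8.6%. A CHR core within 50 bases of the start was found in 20 (74.1%), against 4.5% of measured genes and 6.1% of all genes. A match is a description and not a binding site, and no match says only that these letters are not in the window.

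All 32 genes had a log2 ratio below 0, against 58.9% of all measured genes. Direction therefore cannot set promoters with these letters apart from those without. The median log2 ratio was -1.30 for the 22 genes with a CHR core and -0.98 for the 5 without one, with ranges of -1.86 to -0.05 and -1.78 to -0.42. Ccnb1, at -1.78, is among those without the core. The 15 genes with at least 2 CCAAT boxes had a median of -1.47, the 7 with 1 box -1.10 and the 5 with none -0.98. The ranges of these classes overlapped, at -1.86 to -0.25, -1.46 to -0.05 and -1.11 to -0.41. In a list of G1 and S phase genes, which are induced earlier in the cycle, 3 of 14 promoters (21.4%) held the CHR core, while in a list of other mitosis genes 29 of 41 (70.7%) did.

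**Figure D3:**
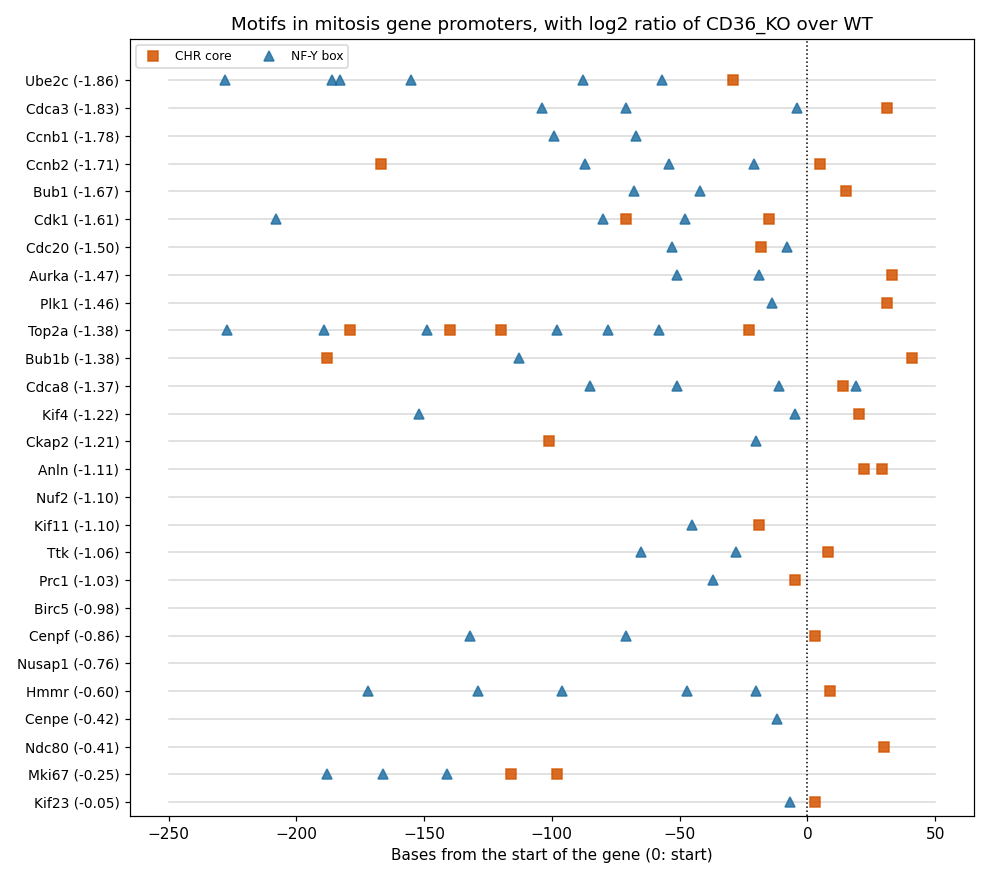
Positions of the CHR core and of the NF-Y box in the promoters of the 27 mitosis genes found in the RefSeq table, in bases from the gene start (0), with the log2 ratio of CD36_KO over WT after each name; for Prc1 1 of its promoters is drawn. CHR cores lie mostly within 50 bases of the start (20 of 27 genes). Genes with both motifs occur at the top and at the bottom of the order. So do genes with only 1 of them, such as Ccnb1 (-1.78), Cenpe (-0.42) and Ndc80 (-0.41).

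Cyclins and Cdk1, the engine of mitotic entry, lay close together: all 4 were at least 2-fold lower and together stood at 31.2% of the WT level (95% counting interval 28.1 to 34.6). Cdk1 (ENSMUSG00000019942.13, GRCm38 chromosome 10, 69335146 to 69352938) is the kinase itself. It had 31, 25, 21 and 30 estimated counts in the CD36_KO lanes, against 64, 69, 73 and 71 in the WT lanes. Every CD36_KO lane held fewer than 32 counts and every WT lane 64 or more, so the lanes did not overlap. Its level was 7.93 ± 1.55 TPM in CD36_KO and 18.3 ± 3.96 TPM in WT (SD over 4 lanes of 1 library), and its log2 ratio was -1.61 (counting interval -1.95 to -1.28). Ccnb1 (ENSMUSG00000041431.16, chromosome 13, 100778650 to 100786570) encodes cyclin B1, which activates Cdk1. Its lanes held 36.2, 23, 35.1 and 33 counts in CD36_KO, against 100, 90.5, 93 and 86.2 in WT, again without overlap. The log2 ratio of Ccnb1 was -1.78 (counting interval -2.08 to -1.49), with 4.95 ± 0.90 TPM in CD36_KO and 11.8 ± 0.49 TPM in WT.

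Ccnb2, the second B-type cyclin, had 67 counts in CD36_KO and 186 in WT (log2 ratio -1.71). Its copy Ccnb2-ps is annotated as a separate gene with 41 counts in CD36_KO and 25 in WT, so the division of reads between them is uncertain. Ccna2, the cyclin A of S phase and early mitosis, had 185 counts in CD36_KO and 488 in WT (log2 ratio -1.64). Exons of Ccna2 share 510 bases with Exosc9 on the opposite strand, and the sources at hand do not state whether counting used strand, so reads there cannot be told apart. The 4 ratios, -1.78 to -1.61, lay within each other's counting intervals.

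The mitotic kinases and checkpoint genes were likewise all lower, 5 of 5, at 36.8% of the WT level (32.9 to 41.1). Bub1 (ENSMUSG00000027379.13, chromosome 2, 127801122 to 127831865), a checkpoint kinase at the kinetochore, was the lowest of them. Its lanes held 21, 16, 25 and 23 counts in CD36_KO, against 60, 62, 61 and 47 in WT, which do not overlap, and its log2 ratio was -1.67 (-2.05 to -1.31). On the TPM scale the Bub1 lanes did overlap, at 1.83 to 5.32 TPM in CD36_KO and 3.22 to 4.96 TPM in WT. Bub1b (ENSMUSG00000040084.9, chromosome 2, 118598211 to 118641591) encodes BubR1, part of the checkpoint complex that inhibits Cdc20, and was the most abundant of the group by mean TPM. It had 43, 48, 48 and 39 counts in the CD36_KO lanes, against 112, 95, 105 and 81 in the WT lanes, well apart. The log2 ratio of Bub1b was -1.38 (-1.64 to -1.12), with 4.07 ± 1.14 TPM in CD36_KO and 6.78 ± 1.41 TPM in WT.

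Ttk (ENSMUSG00000038379.15, chromosome 9, 83834689 to 83872389), the checkpoint kinase Mps1, had the highest ratio of the group and the fewest counts. It had 9, 15.1, 7.03 and 12.02 counts in the CD36_KO lanes, against 19, 24.1, 13.0 and 20.1 in the WT lanes, so raw counts overlapped while scaled CPM just did not (5.48 at most in CD36_KO, 5.50 at least in WT). Its log2 ratio was -1.06 (-1.63 to -0.50). With any of 4 single lanes left out Ttk was no longer 2-fold lower, the ratio then being -0.98 to -0.86. Plk1, which drives centrosome maturation and later cytokinesis, had 77 counts in CD36_KO and 179 in WT (log2 ratio -1.46). Aurka, the centrosomal Aurora kinase, had 73 counts in CD36_KO and 172 in WT (log2 ratio -1.47).

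All 3 genes grouped here with the anaphase-promoting complex were at least 2-fold lower. Together they stood at 30.4% of the WT level (25.7 to 35.7), within counting error of the cyclins and Cdk1. Ube2c (ENSMUSG00000001403.13, chromosome 2, 164769898 to 164778822) is the ubiquitin-conjugating enzyme that starts chains on substrates of the complex. Its lanes held 10.6, 9.08, 22.2 and 10.7 counts in CD36_KO, against 36.1, 46.1, 44.95 and 36.2 in WT. The lanes did not overlap, although 1 CD36_KO lane stood well above its fellows. The log2 ratio was -1.86 (-2.33 to -1.40), with 4.10 ± 1.91 TPM in CD36_KO and 9.97 ± 1.496 TPM in WT. Cdc20 (ENSMUSG00000006398.15, chromosome 4, 118432901 to 118437352), the activator of the complex in anaphase, had the highest ratio of them. It had 24, 18, 19 and 17 counts in the CD36_KO lanes, against 37, 42, 52 and 56.0 in the WT lanes, with no overlap and a log2 ratio of -1.5 (-1.90 to -1.11). Its level was 3.23 ± 0.72 TPM in CD36_KO and 5.66 ± 1.14 TPM in WT.

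Cdca3, named a trigger of mitotic entry, had 70 counts in CD36_KO and 211 in WT (log2 ratio -1.83). A list of core subunits of the anaphase-promoting complex, which cells keep throughout the cycle, also held Ube2s and Fzr1, which are not subunits. The list stood nearer to all genes: of 16 listed genes, 1 was at least 2-fold lower, 0 higher and 15 between. Its median log2 ratio of -0.31 became 0.16 on the log2(TPM + 1) scale. The 1 lowered gene was Ube2s, the chain-elongating enzyme (335 counts in CD36_KO and 683 in WT, log2 ratio -1.27). Next lowest were the subunits Anapc13 (-0.81) and Anapc11 (-0.60), and highest were Cdc26 and Cdc23 (0.02 each).

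The chromosomal passenger complex was split. It corrects faulty kinetochore attachments and then moves to the central spindle, and 2 of its 4 genes were at least 2-fold lower. Aurkb (ENSMUSG00000020897.12, chromosome 11, 69045647 to 69051664), its kinase, had the lowest ratio of all 32 genes. Its lanes held 15, 8, 17 and 10 counts in CD36_KO, against 51, 43, 46 and 49 in WT, so the highest CD36_KO lane was far under the lowest WT lane. The log2 ratio was -2.16 (-2.64 to -1.70), with 2.53 ± 1.25 TPM in CD36_KO and 6.603 ± 0.47 TPM in WT. Incenp (ENSMUSG00000024660.9, chromosome 19, 9872296 to 9899551), the scaffold that holds and activates Aurora B, was the most abundant by mean TPM and had the highest ratio. It had 53, 58, 64 and 66 counts in the CD36_KO lanes, against 83, 85, 97 and 76 in the WT lanes, without overlap. Incenp had a log2 ratio of -0.74 (-0.98 to -0.50), with 6.97 ± 1.38 TPM in CD36_KO and 10.03 ± 2.12 TPM in WT.

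The intervals of Aurkb and Incenp did not overlap, so within the complex the kinase had a lower ratio than its scaffold beyond counting error. Incenp counts were 4.82 times those of Aurkb in CD36_KO (lanes 3.53 to 7.25) and 1.80 times in WT (lanes 1.55 to 2.11), a ratio that no library scaling can change. Birc5, the survivin subunit, had 136 counts in CD36_KO and 228 in WT, a log2 ratio of -0.98 that lies just under the 2-fold limit. Cdca8, the borealin subunit, had 72 counts in CD36_KO and 158 in WT (log2 ratio -1.37).

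Of the kinetochore genes 1 of 4 was at least 2-fold lower, with a median log2 ratio of -0.64 and a summed level of 62.1% of WT (55.6 to 69.4). Ndc80 (ENSMUSG00000024056.10, chromosome 17, 71496100 to 71526857), which grips the microtubule end, had the highest ratio and, by mean TPM, the highest level of the group. Its lanes held 32.5, 37.1, 34.3 and 33.2 counts in CD36_KO, against 41.5, 37.98, 32.7 and 42.2 in WT. The raw counts overlapped, while scaled CPM did not (11.6 to 13.5 in CD36_KO, 13.8 to 18.1 in WT). The log2 ratio was -0.41 (-0.75 to -0.07), and on the log2(TPM + 1) scale it was 0.16, with 3.79 ± 0.34 TPM in CD36_KO and 3.30 ± 0.31 TPM in WT.

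Nuf2 (ENSMUSG00000026683.14, chromosome 1, 169497934 to 169531464), the partner of Ndc80 in the same complex, was the lowest of the group. It had 15.0, 16.1, 15.2 and 20.1 counts in the CD36_KO lanes, against 20.1, 37.1, 34 and 29.1 in the WT lanes. The lowest WT lane thus lay level with the highest CD36_KO lane in raw counts. Its log2 ratio was -1.10 (-1.56 to -0.66), but without 1 or another WT lane it was -0.92 or -0.98 and no longer 2-fold lower. Cenpf, a large outer kinetochore protein, had 203 counts in CD36_KO and 313 in WT (log2 ratio -0.86). Cenpe, the motor that moves chromosomes to the spindle equator, had 145 counts in CD36_KO and 165 in WT (log2 ratio -0.42).

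Spindle genes were intermediate, 3 of 5 at least 2-fold lower and together at 48.6% of the WT level (44.1 to 53.5). Tpx2 (ENSMUSG00000027469.16, chromosome 2, 152847964 to 152895321), which activates Aurora A and nucleates microtubules, was both the most abundant by mean TPM and the lowest in ratio. Its lanes held 38.3, 43, 37.2 and 43 counts in CD36_KO, against 96, 92.2, 94 and 86 in WT, tightly grouped and apart. Tpx2 had a log2 ratio of -1.43 (-1.71 to -1.16), with 3.74 ± 1.09 TPM in CD36_KO and 6.97 ± 1.92 TPM in WT. Hmmr (ENSMUSG00000020330.16, chromosome 11, 40701395 to 40733422), a spindle-associated protein also known as a hyaluronan receptor, had the highest ratio. It had 47.5, 40.3, 53.2 and 34.5 counts in the CD36_KO lanes, against 56.0, 60.2, 62.2 and 46.6 in the WT lanes, which overlap as raw counts and lie apart as scaled CPM. Its log2 ratio was -0.60 (-0.89 to -0.31), and 0.03 on the log2(TPM + 1) scale.

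Kif11, the motor that pushes spindle poles apart, had 191 counts in CD36_KO and 347 in WT (log2 ratio -1.10). Ckap2, which stabilises spindle microtubules, had only 47 counts in CD36_KO and 92 in WT (log2 ratio -1.21). Nusap1, which bundles microtubules near chromatin, had 99 counts in CD36_KO and 142 in WT, a log2 ratio of -0.76 that was 0.24 on the log2(TPM + 1) scale.

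Among the genes of chromosome structure, Top2a was at least 2-fold lower and Mki67 lay between. Top2a (ENSMUSG00000020914.17, chromosome 11, 98992943 to 99024189) encodes the topoisomerase that untangles sister chromatids and had the highest mean TPM of the 32 genes over both libraries. Its lanes held 144, 164, 154 and 130.5 counts in CD36_KO, against 331, 339.7, 325 and 314 in WT, less than any WT lane in every CD36_KO lane. This gave Top2a a log2 ratio of -1.38 (-1.52 to -1.24), with 10.3 ± 1.14 TPM in CD36_KO and 20.7 ± 1.58 TPM in WT.

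Mki67 (ENSMUSG00000031004.8, chromosome 7, 135689784 to 135716361) encodes Ki-67, the coat protein of mitotic chromosomes that is the usual stain for cycling cells. It had 259, 274, 261 and 262 counts in the CD36_KO lanes, against 274, 223, 304 and 262 in the WT lanes, and these overlap. Its log2 ratio was -0.25 (-0.37 to -0.12), -0.05 with total-count scaling and 0.12 on the log2(TPM + 1) scale, with 6.91 ± 0.82 TPM in CD36_KO and 6.26 ± 1.02 TPM in WT. A direction for Mki67 thus depends on the scaling. Kif4, a chromosome-bound motor, had 79 counts in CD36_KO and 156 in WT (log2 ratio -1.22), yet 1.78 ± 0.94 TPM in CD36_KO and 1.599 ± 0.22 TPM in WT (0.10 on the log2(TPM + 1) scale).

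Cytokinesis genes, which build the central spindle and the contractile ring, were at least 2-fold lower in 3 of 4 cases with TMM scaling. With total counts none of the 4 passed that limit (Anln -0.92, Kif20a -0.84, Prc1 -0.84, Kif23 0.15), and their summed TPM was 34.1 in CD36_KO and 29.7 in WT. Anln (ENSMUSG00000036777.8, chromosome 9, 22332012 to 22389188), anillin of the contractile ring, was the lowest of them. Its lanes held 79.7, 67.8, 83.8 and 67.4 counts in CD36_KO, against 147, 128.5, 136 and 137 in WT, without overlap, and its log2 ratio was -1.11 (-1.32 to -0.91). Its level was 6.59 ± 1.22 TPM in CD36_KO and 7.84 ± 0.92 TPM in WT. Kif23 (ENSMUSG00000032254.10, chromosome 9, 61915905 to 61946774), the motor of the centralspindlin complex, was the exception of the whole set. It had 55.5, 54, 69.8 and 60.5 counts in the CD36_KO lanes, against 53.8, 44.7, 40.1 and 71.2 in the WT lanes, which overlap. For Kif23 the log2 ratio was -0.05 (-0.32 to 0.23), while its level was 15.7 ± 1.74 TPM in CD36_KO and 7.19 ± 2.98 TPM in WT (1.03 on the log2(TPM + 1) scale).

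Prc1, which bundles the central spindle, had 209 counts in CD36_KO and 363 in WT (log2 ratio -1.03). Kif20a, a motor that brings the passenger complex to the midzone, had 129 counts in CD36_KO and 225 in WT (log2 ratio -1.04). Both are near the limit: leaving out single lanes gave ratios down in size to -0.93 for Prc1 and -0.90 for Kif20a. Exons of Kif20a share 1271 bases with Cdc23 and those of Prc1 911 bases with Rccd1, each on the opposite strand, where reads cannot be told apart if counting ignored strand. Kif4 with Pdzd11 (832 bases) and Ube2c with Tnnc2 (592 bases) overlap in the same way.

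The make-up of the mitosis RNA therefore differed between the libraries, and this can be read without any library scaling, as each gene's share of the 5471 counts of the set in CD36_KO and the 9650 in WT. The exact 95% intervals of these shares were apart for 15 of the 32 genes. The share was higher in CD36_KO for 5, namely Mki67, Kif23, Ndc80, Cenpe and Hmmr. It was lower in CD36_KO for 10, among them Aurkb, Ccnb1, Cdk1 and Top2a. Mki67 made up 19.3% of the set in CD36_KO (18.3 to 20.4) and 11.0% in WT (10.4 to 11.7), and Top2a 10.8% in CD36_KO (10.03 to 11.7) and 13.6% in WT (12.9 to 14.3). Mki67 had 8.32 times the counts of Ccnb1 in CD36_KO (lanes 7.15 to 11.9) and 2.87 times in WT (lanes 2.46 to 3.27). Ratios between genes count reads, which grow with transcript length, so only their difference between the libraries is of use. Length need not act equally in both libraries, whose implied fragment lengths differ, and its part in that difference was not tested.

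Transcript length went with these differences, a comparison chosen after the values were seen. Across the 32 genes, which are not independent, the log2 ratio was higher with a greater length of the transcript holding most counts (Pearson r 0.52, Spearman rho 0.50, and 0.45 and 0.46 without Mki67). The 9 genes under 2000 bases had a median log2 ratio of -1.61, the 16 from 2000 bases to under 4000 -1.08 and the 7 of 4000 bases or more -1.10. All 11032 measured genes with a coding transcript showed medians of -0.34, -0.17 and -0.04 over the same length classes. In 43 other mitosis genes the relation was near 0 (r 0.00, rho 0.09). On the log2(TPM + 1) scale Spearman rho over the 32 genes was 0.53, and 0.50 without Mki67. The libraries differed in implied fragment length, as given above, and its part in these values was not tested.

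**Figure D4:**
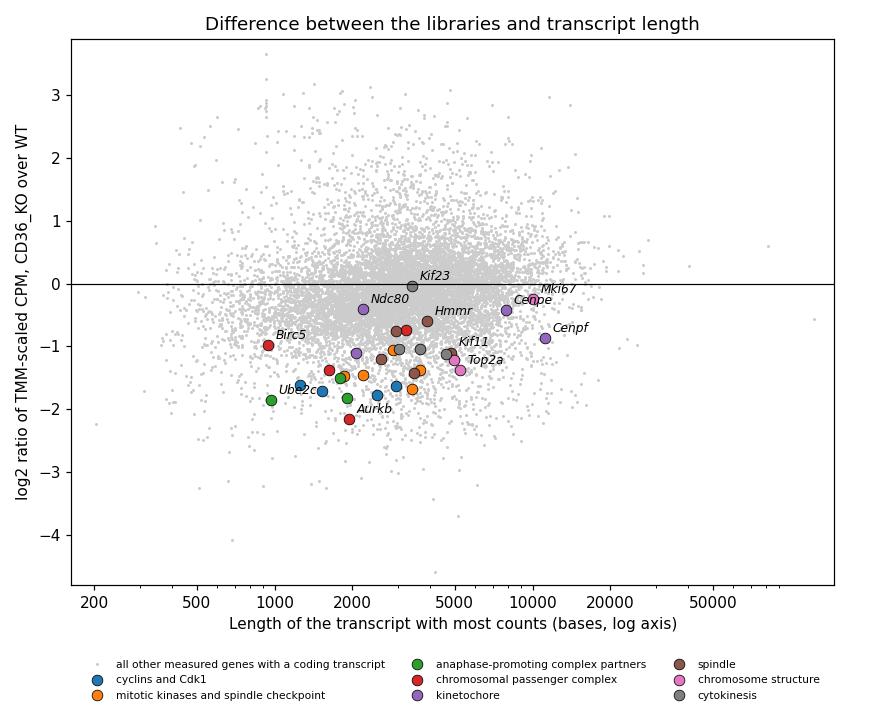
The log2 ratio of CD36_KO over WT (TMM-scaled CPM) against the length of each gene's most counted transcript (bases, log axis), with the 32 mitosis genes coloured by role over all other measured genes with a coding transcript in grey. The short genes Ube2c and Aurkb lie lowest and the long genes Mki67 and Cenpe near the top of the set, with Kif23 and Ndc80 of medium length also high (r 0.52 over the 32 genes). Other genes depart from this: the short Birc5 lies at -0.98, and the long Top2a and Kif4 at -1.38 and -1.22.

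By transcript, 87.2% of the counts of the set lay on protein-coding transcripts in CD36_KO and 90.4% in WT. Retained-intron transcripts held 9.12% in CD36_KO (lanes 6.88 to 10.7) and 5.84% in WT (lanes 5.22 to 7.10), so the lanes overlapped. Over all measured coding genes these shares were 8.98% in CD36_KO and 6.89% in WT. Kif23 was split by transcript type: its coding transcripts had 100.6 counts in CD36_KO and 133.1 in WT (log2 ratio -0.64, -1.02 to -0.25), and its other transcripts 139.2 in CD36_KO and 76.6 in WT (0.62, 0.20 to 1.03). Incenp was split further, with 174.2 coding counts in CD36_KO and 328.3 in WT (-1.15), 66.8 other counts in CD36_KO and 12.7 in WT (2.16, 1.26 to 3.11), and a retained-intron transcript, Incenp-209, at 61.7 counts in CD36_KO and 0 in WT. Ttk had 25.1 coding counts in CD36_KO and 31.1 in WT (-0.55, -1.37 to 0.26). Its other transcripts had 18.0 in CD36_KO and 45.1 in WT (-1.56, -2.44 to -0.74). For Ndc80 the coding counts were 46.3 in CD36_KO and 72.6 in WT (-0.89, -1.47 to -0.35). The other Ndc80 transcripts had 90.6 in CD36_KO and 81.8 in WT (-0.09, -0.53 to 0.36). Read division between such transcripts is an estimate. With coding transcripts alone, scaled anew, 19 of the 32 genes were at least 2-fold lower, against 10.4% of all genes measured that way, and Incenp was at -0.995 and not called.

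Genes around this set moved to different degrees. Of 43 measured genes in the list of other mitosis genes, 21 were at least 2-fold lower, 1 was higher and 21 lay between (median log2 ratio -0.96). The lowest were the kinases Pbk (-2.13) and Melk (-1.92) and the microtubule depolymerase Kif2c (-1.78), and the highest were the condensin subunit Smc4 (1.24) and securin, Pttg1 (0.43). Of 18 G1 and S phase genes, 6 were at least 2-fold lower, 0 were higher and 12 lay between (median -0.85). They included the replication licensing factor Cdc6 (35 counts in CD36_KO and 124 in WT, log2 ratio -2.06), the ribonucleotide reductase subunit Rrm2 (-1.72) and Uhrf1 (-1.41), while Ccne2 (-0.28) and Mcm4 (-0.48) were highest.

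Among 19 factors that control mitotic genes, 4 were at least 2-fold lower, 0 were higher and 15 lay between (median -0.24, but 0.35 on the log2(TPM + 1) scale). The 4 were Mybl2, E2f8 (-1.31), Foxm1 and E2f1 (-1.20). Mybl2 had 44 counts in CD36_KO and 97 in WT (log2 ratio -1.38), and Foxm1 147 in CD36_KO and 305 in WT (-1.29). The other E2f genes of the list, E2f3 (-0.99), E2f7 (-0.77), E2f4 (-0.41) and E2f2 (-0.02), lay between. The highest were Rbl2 (0.37), the p130 protein of the repressing complex in resting cells, and Nfyb (0.23), a subunit of NF-Y. Of 9 measured Cdk inhibitors and quiescence genes, 1 was at least 2-fold lower, 0 were higher and 8 lay between (median 0.20). That 1 was Cdkn1a, the p53 target p21 (331 counts in CD36_KO and 767 in WT, log2 ratio -1.45), followed by Cdkn2c (-0.81) and Gadd45a (-0.40). The antiproliferative genes Btg1 and Btg2 stood highest, at 0.78 each.

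**Figure D5:**
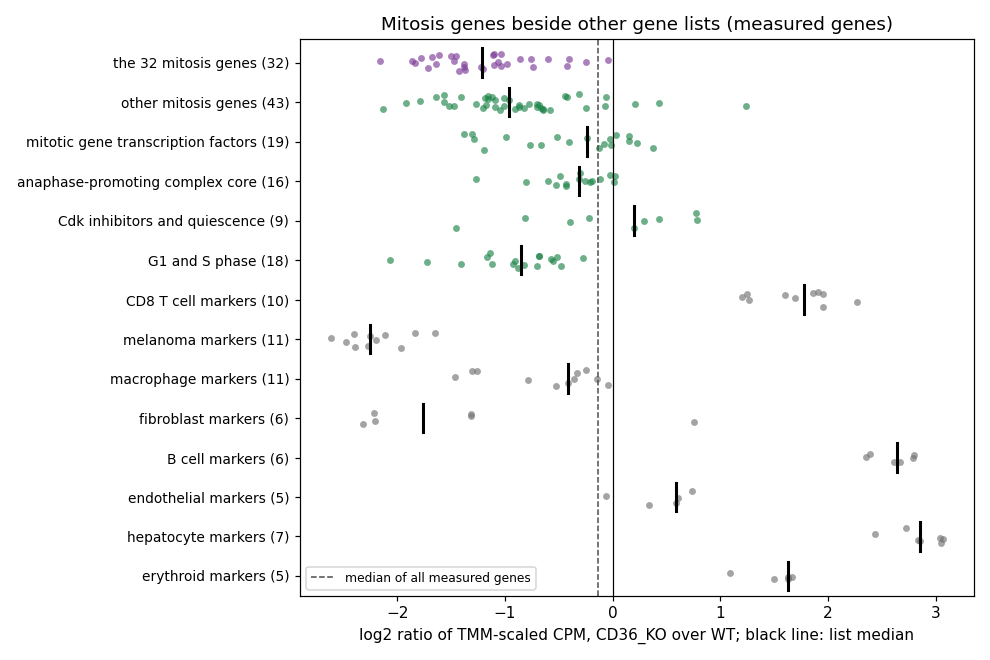
The log2 ratio of CD36_KO over WT for each measured gene of the 32 mitosis genes, of 5 lists of related genes and of 8 lists of cell type markers, with a black line at each list's median. The mitosis genes (median -1.21) lie below the median of all measured genes (-0.13, dashed), between the other mitosis genes (-0.96) and the melanoma markers (-2.25), while CD8 T cell markers lie at 1.78.

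The remaining marker lists frame the sample, with the most abundant marker of each named by TPM. The B cell markers (6 of 6, median 2.64, most abundant Cd79b), hepatocyte markers (7 of 7, median 2.85, most abundant Alb) and erythroid markers (5 of 5, median 1.62, led by Hbb-bs and Hba-a2) were all at least 2-fold higher in CD36_KO. Of 11 macrophage markers, 3 were at least 2-fold lower and 8 between (median -0.42, most abundant Lyz2), and all 5 measured endothelial markers lay between (median 0.58, most abundant Pecam1). Their part in the values of the mitosis genes was not tested.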

How the data were processed

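The 32 genes and the comparison lists were chosen with earlier results of these data known, so no list is independent evidence. Per the submitters' processing notes, kallisto and DESeq2 were used with genome build GRCm38.p6; versions, annotation release and strand setting were not given in the sources at hand. The authors deposited estimated counts, not normalised, and TPM values, scaled for effective length and lane total, for 142351 transcripts per lane.

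Here the estimated counts were summed over transcripts, then over the 4 lanes of each library, and rounded. Scaled CPM used the TMM factors of edgeR 4.0.16 (R 4.3.3), 1.071 for CD36_KO and 0.934 for WT. The log2 ratio was CD36_KO over WT, with an exact Clopper-Pearson 95% interval for counting error. A gene with a mean of at least 5 CPM was measured, and was called lower or higher at a log2 ratio of at least 1 in size with an interval excluding no difference. No p-value is given, as each genotype has 1 library. Among the 32 genes the lanes of a library differed about as much as sampling noise gives (chi-square per degree of freedom 1.02 for CD36_KO, 0.947 for WT). Over all measured genes the lanes varied more than that, at 1.25 for CD36_KO and 1.30 for WT. The steps were tested on simulated data.

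All 32 genes are named; full lane values are given for the most abundant, lowest and highest of each role, and from each further list up to 3 lowest and 2 highest genes, Foxm1, Mybl2 and the leading marker of each cell type. Cd8a, Cdkn1b, genes given by transcript and genes set in ratios were chosen after their values were seen. Coordinates are from GENCODE M21 on GRCm38. Alternatives were total-count and DESeq2 1.42.0 scaling, TPM scales, other filters, coding transcripts only, a 1.5-fold limit and leaving out each lane.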

Additional observations from a re-analysis of the deposited data

Results flagged for a closer look

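In 2 of 64 groups of 4 lanes examined, 1 lane stood far from the others by Dixon's criterion, which chance meets in about 1 group in 20. Ube2c reached 7.95 CPM in 1 CD36_KO lane, against 3.301 to 3.901 CPM in the other CD36_KO lanes. Without that lane its log2 ratio was -2.26, further from 0 than the -1.86 given with all lanes. Cdca3 reached 25.3 CPM in 1 WT lane, against 21.1 to 21.8 CPM in the other WT lanes. Without any single lane its log2 ratio stayed between -1.93 and -1.70.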

How the results depend on the processing

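No paired analysis was possible because lane numbers are the only numbers shared by the genotypes and the lanes of a genotype are 1 library, so no test was run. The count of genes at least 2-fold lower was 23 with TMM, against 10.8% of all measured genes. It was also 23 with DESeq2 scaling (against 10.4%) and without a filter (against 7.5%). With total counts it was 17 (against 7.7%), with Kif11, Anln, Nuf2, Ttk, Prc1 and Kif20a lost. With coding transcripts only it was 19 (against 10.4%), and at 1.5-fold 28 (against 23.2%). Without single lanes it was 20 to 23 (against 9.7% to 10.9%). Ttk, Prc1, Kif20a, Nuf2 and Kif11 were lost in 1 or more of these, and Birc5 was gained. The count at least 2-fold lower was 4 at log2(TPM + 1) (against 2.7%) and 6 at log2(TPM + 0.1) (against 4.0%). At 20 CPM or more it was 8 of the 12 genes left, against 679 of all 6772 genes left. The count at least 2-fold higher was 1 on both TPM scales (Kif23). Of all measured genes, 12.3% were higher at log2(TPM + 1) and 18.8% at log2(TPM + 0.1). Without single lanes the count was 0 each time, against 6.5% to 7.2% of all measured genes. The median log2 ratio was -1.02 with total counts, -0.51 at log2(TPM + 1), -0.64 at log2(TPM + 0.1), -1.11 at 20 CPM or more and -1.28 to -1.14 without single lanes. The log2 ratio of the summed level, -1.06, was -0.86 with total counts, -0.59 on both TPM scales, -0.95 with coding transcripts and -1.06 to -0.99 without single lanes. Kif4 turned to 0.10 and 0.14 on the TPM scales, the median of the anaphase-promoting complex core to 0.16 and 0.18, and that of the mitotic gene transcription factors to 0.35 and 0.41; the cause was not tested. The median of all measured genes moved from -0.13 with TMM to 0.07 with total counts, 0.37 at log2(TPM + 1) and 0.44 at log2(TPM + 0.1). Kif23, not called, was 0.15 with total counts. Genes with under 100 counts in CD36_KO, such as Ttk, Ckap2 and Aurkb, have the widest intervals.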

Other observations

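Smc4, a condensin subunit that compacts mitotic chromosomes, was the single gene of the related mitosis list at least 2-fold higher in CD36_KO, with 1947 counts in CD36_KO and 699 in WT (log2 ratio 1.24, 95% counting interval 1.11 to 1.37). Its protein-coding transcripts had 476.8 counts in CD36_KO and 284.9 in WT, and its other transcripts 1470 in CD36_KO and 414.4 in WT. The nonsense-mediated decay transcript Smc4-207 held most of these, with 1192 counts in CD36_KO and 313.7 in WT. These transcripts were chosen after their values were seen.

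Cdkn1b, the Cdk inhibitor p27 of resting cells, had 1121 counts in CD36_KO and 707 in WT, a log2 ratio of 0.43 that lies under the 2-fold limit. Its counts were 10.5 times those of Cdk1 in CD36_KO (lanes 8.61 to 14.1) and 2.55 times in WT (lanes 2.20 to 2.91), so the lanes did not overlap. Count ratios between genes depend on transcript length and are of use only between the libraries, whose implied fragment lengths differ.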
